A study of Rattus norvegicus with 8 samples.

Results

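The genes described here belong to the orexin and melanin-concentrating hormone (MCH) system of the hypothalamus. They are the 6 genes Hcrt, Pmch, Hcrtr1, Hcrtr2, Mchr1 and Nptx2, taken by symbol from 18003 gene symbols in the files, and all 6 were present. They held 14 of the 98356 polyadenylation sites. The samples were hypothalamic RNA of adult male Long-Evans rats, 4 air-treated controls (replicates 1, 2, 3 and 4) and 4 rats given vaporized cannabis plant matter, or CPM (replicates 1, 2, 3 and 5). Exposure lasted 10 min in a vapor chamber, and for the controls no plant matter was loaded. All rats had been habituated to the chambers and fed freely, food was removed after exposure, and tissue was taken 1 hr later. The RNA was sequenced from its 3′ ends by whole transcriptome termini site sequencing (WTTS-Seq), in which reads mark the ends of polyadenylated transcripts.

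Hcrt encodes prepro-orexin, the precursor of the orexin (hypocretin) peptides, and Pmch encodes the precursor of MCH. Both peptides are made mainly by neurons of the lateral hypothalamus and adjoining areas, in separate cells that lie intermingled there and project throughout the brain. Orexin neurons promote wakefulness, food seeking and reward through the G protein-coupled receptors encoded by Hcrtr1 and Hcrtr2, whereas MCH promotes feeding and sleep through the receptor encoded by Mchr1. Nptx2 encodes neuronal pentraxin 2 (Narp), a secreted, activity-regulated protein that gathers AMPA-type glutamate receptors at excitatory synapses and is enriched in orexin neurons. The series description places the dissection in the mediobasal hypothalamus and the study's methods in the hypothalamus as a whole, so the amount of lateral tissue in each sample is not known from the labels. In such bulk RNA, fewer cells of a type and less RNA per cell cannot be told apart.

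The libraries held from 1159811 to 3706778 reads on sites. Air control 4 had the fewest, followed by cannabis 1 with 1919709. The deposited values are normalized counts, that is reads divided by the size factor of the library, and 1 read was worth from 0.664 to 1.99 normalized counts. Markers of hypothalamic nuclei ranged widely in their means over the 8 libraries. Avp had 3443 normalized counts, Oxt 894, Tac3 139 and Fezf1 113. Pomc had 78.5, Hdc 64.5, Vip 59.1, Foxb1 47.9 and Agrp 43.4. Kiss1 had 13.9, Nr5a1 12.8, Crh 4.72, Six6 3.75 and Ghrh 2.36. No site carried the symbol Npy. Of the anterior pituitary markers Gh1, Prl and Cga, only Cga was found. Cga had a mean of 370 and a range of 100.7 to 688 in controls and 182 to 619 in cannabis-exposed rats. Of 15 marker lists for hypothalamic nuclei, neighbouring brain regions and cell types, the summed level did not overlap between the groups in 2. Among single gene totals the groups did not overlap for 1.98% of 18003, and no such share was worked out for sums of lists. For the thalamic markers Tcf7l2 and Prkcd (Slc17a7 was absent) the sum was 129 to 147 normalized counts in controls and 158 to 196 in cannabis-exposed rats. For the paraventricular and supraoptic list of 4 genes the sum was 1628 to 4051 and 5018 to 7473. Avp (mean 3443) and Oxt (894) dominated that sum, beside 87.4 for Sim1 and 4.72 for Crh. The study itself lists a distal site of Avp and of Oxt with more reads after cannabis. The part of either difference in the values that follow was not tested.

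Because reads come from transcript ends, normalized counts do not scale with transcript length, and the levels of the 6 genes were set side by side on that scale. The libraries were made with PCR, and whether several reads came from the same transcript was not analysed here. Pmch had the highest level, 762 ± 268 normalized counts (SD, n = 8 libraries), and ranked 329 of 18003 genes. Hcrt followed with 216 ± 67.5 and rank 1727, and Nptx2 with 70.4 ± 24.3 and rank 4873. The receptors had far lower levels, with 21.0 ± 7.995 for Mchr1, 17.0 ± 8.10 for Hcrtr2 and 6.96 ± 5.12 for Hcrtr1 (SD, n = 8 for each). Pmch exceeded Hcrt, Hcrt exceeded Nptx2 and Nptx2 exceeded Mchr1 in 8 of 8 libraries. The ranges of Hcrt and Nptx2 over libraries nevertheless overlapped, from 89.4 upward for Hcrt and up to 106.3 for Nptx2. Among the receptors Mchr1 exceeded Hcrtr2 in 6 of 8 libraries and Hcrtr2 exceeded Hcrtr1 in 6 of 8, also with overlapping ranges. Over all libraries Pmch had 7281 reads and Hcrt 2053, but Hcrtr1 had only 58.

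Short stretches of promoter are shown for Hcrt, Nptx2 and Hcrtr1, the members whose searched motif lies well before the gene start. The 300 bases from RefSeq (GRCr8, minus strand for each gene) that run from 250 bases before to 50 bases after the gene start were at hand for 4 of the 6 genes, Hcrt, Hcrtr1, Hcrtr2 and Nptx2. Capitals mark the motif, either the TATA box letters TATAAA or the cyclic AMP response element core TGACG, both searched on the 2 strands.
Hcrt, chr10:86191536-86191565: acctcagaacacTATAAActcctggcccct
Nptx2, chr12:15162118-15162147: ccgccctcctcaTGACGcgaatgccggagg
Hcrtr1, chr5:147770953-147770982: atcagggctttcTGACGtctttggacacta
The Hcrt motif begins at -29 from the gene start, the Nptx2 motif at -90 and the Hcrtr1 motif at -120. Hcrtr2 held the core on the opposite strand at -4. TATAAA was found in 14.2% of 33469 rat promoters and TGACG in 21.2%, while the full palindrome TGACGTCA, found in 1.83%, was in none of the 4. These letters are a description of the windows, and the 3′ end data do not measure the promoters.

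The first comparison asked whether gene totals, summed over all sites of a gene, differed between cannabis-exposed and air-treated rats. None of the 6 genes was called by limma on log2(normalized count + 1) at an adjusted P under 0.1, and none had an unadjusted P under 0.05. edgeR and DESeq2 on the recovered reads also called none of the 6. In the same limma fit 1 of 18003 genes was called (0.00555%), the dopamine transporter gene Slc6a3, named after its values were seen, and 433 (2.41%) had an unadjusted P under 0.05. All 6 log2 fold changes were above 0, from 0.05 to 0.50 with a median of 0.30, beside a median of 0.05 over all genes. The libraries are shared by the 6 genes, so the common sign does not amount to 6 separate results, and it was lost for 4 of them in single settings given below. For all 6 genes the ranges of the groups overlapped, whereas they did not overlap for 356 of all genes (1.98%).

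**Figure D1:**
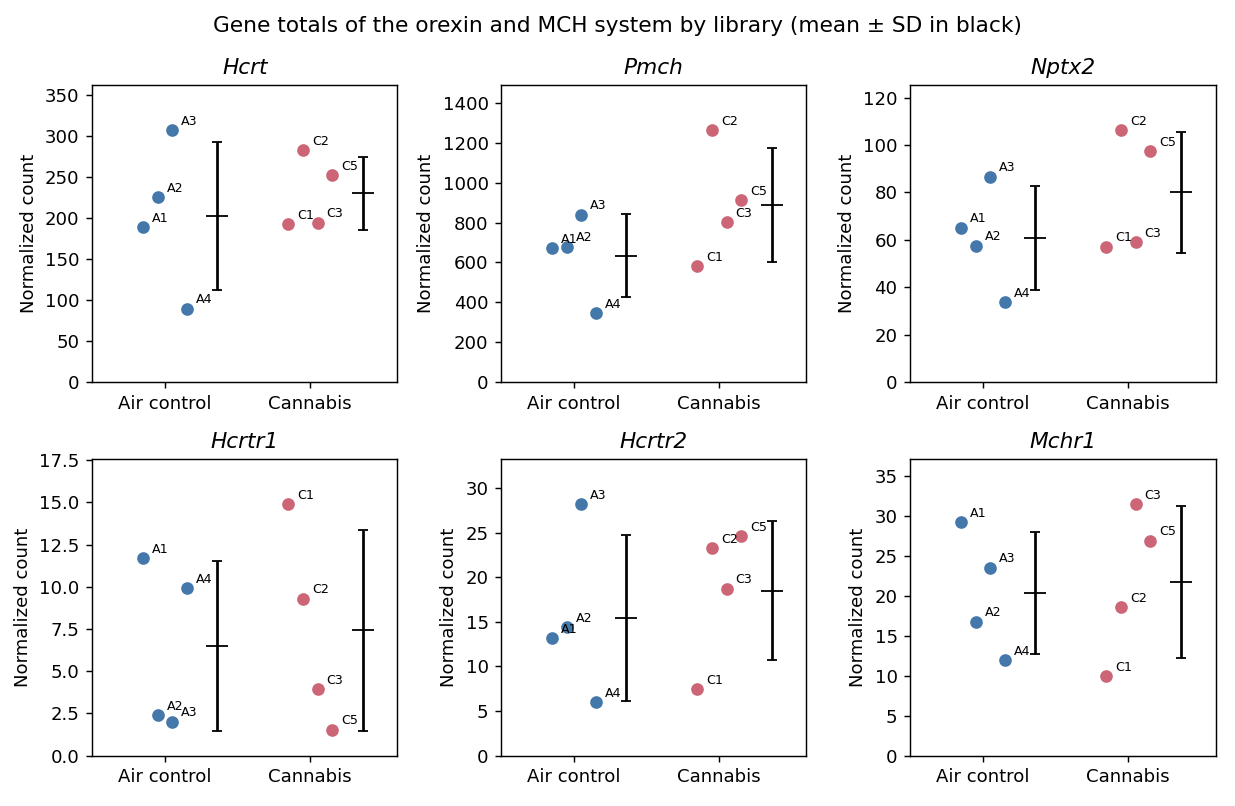
Normalized counts (vertical axes, from 0) of the 6 gene totals in each library, air controls A1 to A4 in blue and cannabis C1, C2, C3 and C5 in red, with the mean ± SD of each group in black (n = 4). The groups overlap in every panel, and A4 is the lowest library for Hcrt, Pmch, Nptx2 and Hcrtr2.

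Among the peptide precursors, Hcrt had 189, 225, 307 and 89.4 normalized counts in air controls 1, 2, 3 and 4, and 192, 282, 194 and 252 in cannabis 1, 2, 3 and 5. The lowest and the highest value were both controls, so that the cannabis values fell within the range of the controls. The group means were 202 ± 90.2 in controls and 230 ± 44.5 in the cannabis group (SD, n = 4 each), with P = 0.6 by the exact two-sided permutation test. The smallest permutation P that 4 against 4 rats allow in that test is 0.0286. The log2 fold change of Hcrt was 0.30 (SE 0.32, 95% interval -0.40 to 0.99, adjusted P = 0.999 in limma), which spans from 0.760-fold to 1.98-fold. Air control 4, with 45 Hcrt reads and an exact Poisson interval of 65.2 to 120 normalized counts that covers counting error only, set much of this value. Without that library the log2 fold change of Hcrt was -0.05, and it was 0.12 in edgeR and 0.10 with log2 reads as a covariate.

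Pmch had 672, 679, 839 and 346 normalized counts in air controls 1, 2, 3 and 4, and 580, 1263, 803 and 911 in cannabis 1, 2, 3 and 5. Cannabis 2 was the highest library and air control 4 the lowest, and cannabis 1 lay below 3 of the 4 controls. The means were 634 ± 207 in controls and 889 ± 285 in the cannabis group (SD, n = 4 each), a ratio of 1.403. Pmch had the lowest P of the 6 genes, with a log2 fold change of 0.50 (SE 0.29, 95% interval -0.13 to 1.13, adjusted P = 0.999 in limma) and P = 0.257 by the exact permutation test. By unadjusted P it ranked 1230 of 18003 genes. When single libraries were left out, the log2 fold change of Pmch stayed between 0.24, without air control 4, and 0.69, without cannabis 1, and with log2 reads as a covariate it was 0.31.

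As a measure that does not depend on the size factor, the Pmch to Hcrt ratio was compared between groups. It was 3.56, 3.02, 2.74 and 3.87 in air controls 1, 2, 3 and 4, and 3.01, 4.48, 4.14 and 3.62 in cannabis 1, 2, 3 and 5. Every rat therefore had more Pmch than Hcrt reads, by 2.74-fold to 4.48-fold, and the groups overlapped. The mean log2 ratio was 1.70 ± 0.22 in controls and 1.91 ± 0.25 in the cannabis group (SD, n = 4 each), a difference of 0.21 with P = 0.257 by the exact permutation test.

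Of the receptors, Hcrtr1, which binds orexin A in preference to orexin B, had 11.7, 2.39, 2.01 and 9.93 normalized counts in controls 1, 2, 3 and 4, and 14.9, 9.30, 3.94 and 1.54 in cannabis 1, 2, 3 and 5. Between 2 and 16 reads stood behind each value, and each group held both high and low libraries. Its log2 fold change was 0.13 (SE 0.67, 95% interval -1.31 to 1.57, adjusted P = 0.999 in limma, exact permutation P = 0.8286). The interval spans from 0.404-fold to 2.97-fold, and no difference was detected.

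Hcrtr2, which binds both orexins and is central to orexin control of wakefulness, had 13.2, 14.4, 28.2 and 5.96 normalized counts in controls 1, 2, 3 and 4, and 7.45, 23.2, 18.7 and 24.6 in cannabis 1, 2, 3 and 5. The highest value was a control, and the lowest of each group was its library with the fewest reads. The log2 fold change was 0.31 (SE 0.49, 95% interval -0.74 to 1.36, adjusted P = 0.999 in limma, exact permutation P = 0.6), with -0.05 without air control 4, 0.15 in edgeR and 0.03 with log2 reads as a covariate.

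Mchr1, the receptor for MCH in rodents, had 29.2, 16.8, 23.5 and 11.9 normalized counts in controls 1, 2, 3 and 4, and 9.93, 18.6, 31.5 and 26.9 in cannabis 1, 2, 3 and 5. Both extremes were cannabis libraries, and the means of 20.4 ± 7.59 and 21.7 ± 9.499 (SD, n = 4 each) differed by less than their spread. The log2 fold change was 0.05 (SE 0.41, 95% interval -0.84 to 0.94, adjusted P = 0.999 in limma, exact permutation P = 0.8286), and its sign changed in several settings, among them -0.12 with log2 reads as a covariate.

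Nptx2, the synaptic pentraxin, had 65.1, 57.5, 86.6 and 33.8 normalized counts in controls 1, 2, 3 and 4, and 57.1, 106.3, 59.0 and 97.5 in cannabis 1, 2, 3 and 5. Cannabis 2 and 5 exceeded every control, and cannabis 1 and 3 lay among the controls. The means were 60.7 ± 21.8 and 79.999 ± 25.6 (SD, n = 4 each), with P = 0.286 by the exact permutation test. The log2 fold change of Nptx2 was 0.41 (SE 0.32, 95% interval -0.28 to 1.11, adjusted P = 0.999 in limma). It was 0.16 without air control 4 and 0.21 with log2 reads as a covariate.

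**Figure D2:**
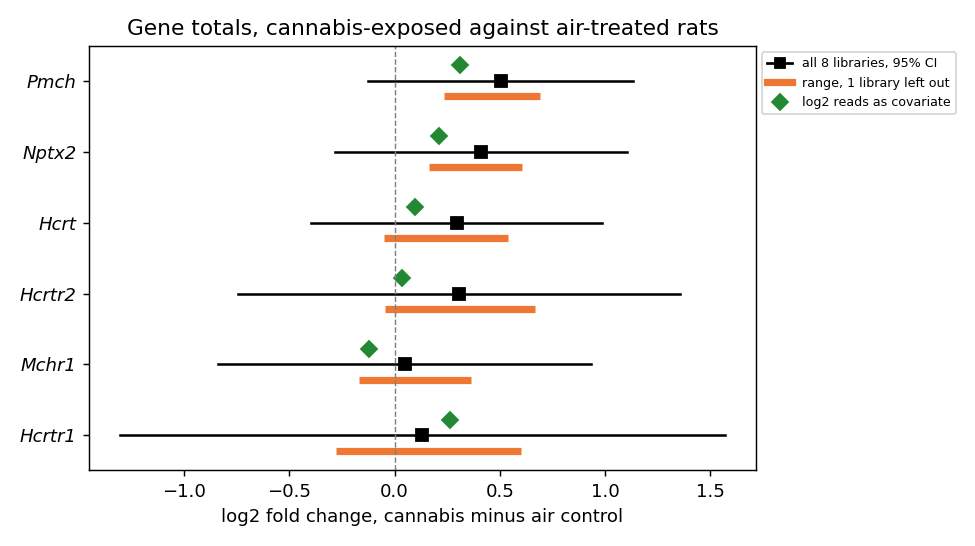
The log2 fold change (horizontal axis, cannabis minus air control) of each gene total, with squares and lines for the limma estimate and its 95% interval over 8 libraries, orange bars for the range when 1 library was left out and green diamonds for the fit with log2 reads as a covariate. Every interval includes 0, and the interval is narrowest for Pmch (-0.13 to 1.13) and widest for Hcrtr1 (-1.31 to 1.57).

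The levels of Hcrt, Pmch and Nptx2 moved together from library to library. Across the 8 libraries Hcrt and Pmch had r = 0.898 (P = 0.00486) and rho = 0.881 (P = 0.00724) on the log2 scale, Hcrt and Nptx2 had r = 0.914 (P = 0.00327) and rho = 0.762 (P = 0.0368), and Pmch and Nptx2 had r = 0.943 (P = 0.00047) and rho = 0.929 (P = 0.00223), all by exact permutation of pairings. After Benjamini-Hochberg adjustment over 6 relations, the permutation P of r was 0.00583, 0.00506 and 0.00283, and that of rho was 0.0145, 0.0441 and 0.0067. With the group means removed, r was 0.908 for Hcrt with Pmch, 0.913 for Hcrt with Nptx2 and 0.932 for Pmch with Nptx2. Without the 2 libraries farthest from the median of the first gene, r was 0.853 (exact permutation P = 0.0236), 0.873 (P = 0.0375) and 0.796 (P = 0.0542), so the last relation no longer passed 0.05. Leaving out air control 4 alone gave r = 0.710 for Hcrt with Pmch (exact permutation P = 0.0692).

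**Figure D3:**
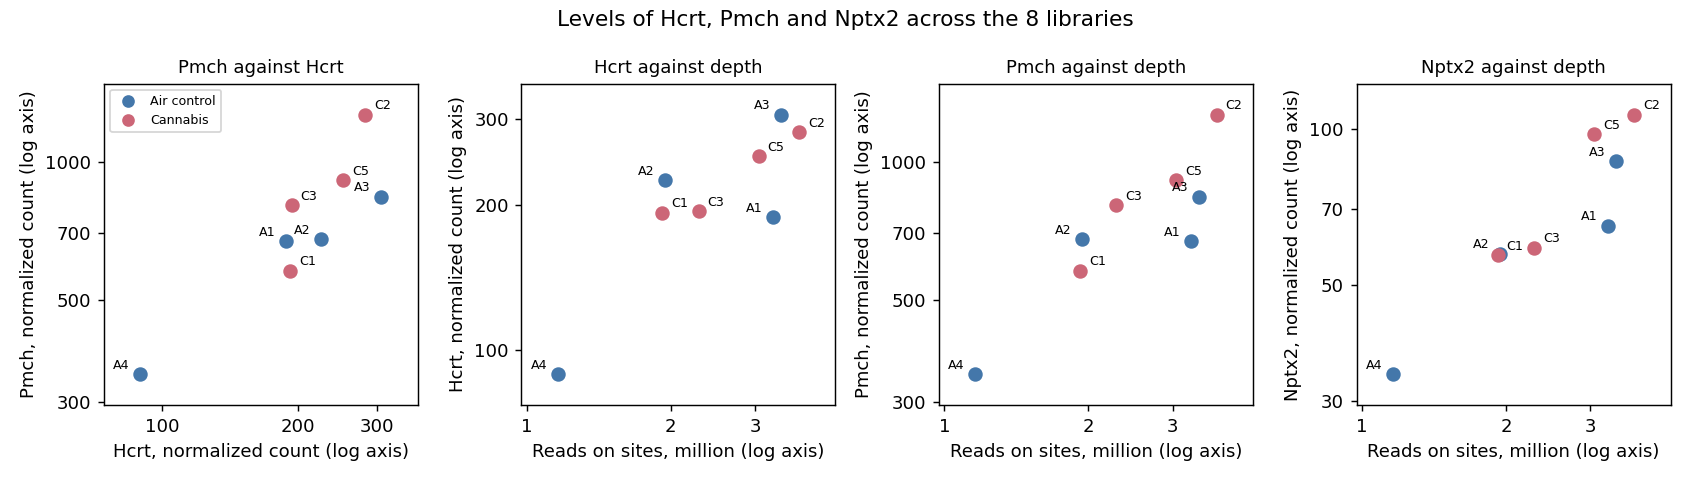
The first panel plots Pmch against Hcrt and the others plot Hcrt, Pmch and Nptx2 against the reads on sites of each library, all on log axes, with air controls (A) in blue and cannabis (C) in red. A4, with the fewest reads, is lowest for all 3 genes, and C2, with the most reads, is highest for Pmch and Nptx2.

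The same 3 genes followed the depth of the library, although their values were normalized. With log2 reads on sites, r was 0.858 for Hcrt (P = 0.0092, rho = 0.714, P = 0.0576), 0.884 for Pmch (P = 0.00337, rho = 0.810, P = 0.0218) and 0.926 for Nptx2 (P = 0.00129, rho = 0.929, P = 0.00223), by exact permutation. The adjusted permutation P over the 6 relations was 0.0092, 0.00506 and 0.00387 for r and 0.0576, 0.0327 and 0.0067 for rho. These relations were weaker without the shallowest and the deepest library, air control 4 and cannabis 2. There r was 0.5003 (P = 0.311), 0.604 (P = 0.171) and 0.768 (P = 0.0861) by exact permutation. Leaving these libraries out also narrows the range of depth and leaves fewer points. Among 6104 genes with a mean of at least 50 normalized counts the median r with log2 reads was 0.206, and a value at least as high as that of Hcrt, Pmch and Nptx2 was reached by 3.82%, 2.18% and 0.655% of genes. After a straight line on log2 reads was taken out, r fell to 0.582 for Hcrt with Pmch, 0.615 for Hcrt with Nptx2 and 0.703 for Pmch with Nptx2. Air control 4 was also the library with the lowest sum for 5 of the 15 marker lists. These were the lateral hypothalamus list, which is Hcrt and Pmch themselves, and the suprachiasmatic, tuberomammillary and mammillary, striatal and choroid plexus lists. It had the highest sum for the cortex, microglia and neuron lists. The part of depth or of tissue make-up in the values of these genes was not tested.

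Likeness to other genes was described by Pearson's r of log2(gene total + 1) over the same 8 libraries. For Hcrt, the 5 most alike of the other 6103 genes were Kat6b (r = 0.978), Uqcc3 (r = 0.977), Lpin2 (r = 0.976), Rasgrf1 (r = 0.972) and Trnr (r = 0.971). Kat6b is a histone acetyltransferase, Lpin2 a phosphatidate phosphatase and Rasgrf1 a neuronal exchange factor for Ras. For Pmch they were RGD1307443, listed by RefSeq as Kiaa0319 (r = 0.999), Tspan6 (r = 0.983), Fyttd1 (r = 0.982), Klhl13 (r = 0.982) and Rps28-ps1 (r = 0.982). The other members ranked lower, since Nptx2 was in place 90 and Pmch in place 130 for Hcrt, while Nptx2 was in place 79 and Hcrt in place 253 for Pmch. These 8 points share the differences in depth between the libraries.

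The second comparison asked whether single 3′ end sites, or the choice among sites of a gene, differed between groups. None of the 14 sites was called at an adjusted P under 0.1 in limma and none had an unadjusted P under 0.05, where 1 of 98356 sites (0.00102%) and 2981 sites (3.03%) were. The lowest limma P among the 14 was 0.0945, at the main site of Pmch, which had 626 ± 212 normalized counts in the controls against 881 ± 291 after cannabis (SD, n = 4 each) and a log2 fold change of 0.51 (SE 0.29, adjusted P = 1.00). Hcrt, Hcrtr1 and Nptx2 each had 1 site, so their site values equal their gene totals. Site positions were not analysed here. RefSeq (GRCr8) lists Parpbp as overlapping Pmch and no overlapping gene for the other 5. The strand of the 14 sites relative to their genes was not analysed here, and the symbols in the files can include sites antisense to a gene.

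Pmch had 3 sites, and the main one took 97.7%, 99.6% and 96.6% of the Pmch reads in controls 1, 2 and 4, all 1250 reads in control 3, and 96.6%, 99.8%, 99.4% and 99.5% in cannabis 1, 2, 3 and 5. In all rats nearly all reads on sites with the symbol Pmch thus lay at a single site, which held 7221 of 7281 reads. The second site had between 0 and 16 reads in a library, and the third site had 15 reads in air control 1 and at most 2 elsewhere. The mean share of the main site was 98.5% ± 1.63 in controls and 98.8% ± 1.501 in the cannabis group (SD, n = 4 each), with P = 0.914 by the exact permutation test.

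Mchr1 had 2 sites, and the main one held 87.5%, 85.7% and 77.1% of its reads in controls 1, 2 and 3, all 6 reads in control 4, and 87.5%, 78.6%, 90.6% and 85.7% in cannabis 1, 2, 3 and 5. The 95% Wilson interval of the share in air control 4 began at 61.0% and covers counting error only. The groups overlapped, with means of 87.6% ± 9.43 and 85.6% ± 5.11 (SD, n = 4 each) and P = 0.857 by the exact permutation test.

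Hcrtr2 was spread over 6 sites, none of which held most of its reads in every library. The main site held 22.2%, 66.7%, 38.1% and 66.7% of Hcrtr2 reads in controls 1, 2, 3 and 4, and 33.3%, 34.3%, 26.3% and 46.9% in cannabis 1, 2, 3 and 5, from between 3 and 42 reads per library. The means were 48.4% ± 22.1 and 35.2% ± 8.55 (SD, n = 4 each), a difference of -13.2 percentage points with P = 0.314 by the exact permutation test. Adjusted over the 3 genes with several sites, the permutation P was 0.914 for each. The 6 sites had from 16 to 64 reads over all libraries. The fourth site had the lowest exact permutation P of the 14 sites, 0.0571, with 1.46, 2.39, 1.34 and 0 normalized counts in controls 1, 2, 3 and 4 and 2.48, 4.65, 3.94 and 2.30 in cannabis 1, 2, 3 and 5, from at most 7 reads. The 0 in air control 4 allows up to 5.96 normalized counts there, the worth of 3 reads, which is more than any of these values.

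**Figure D4:**
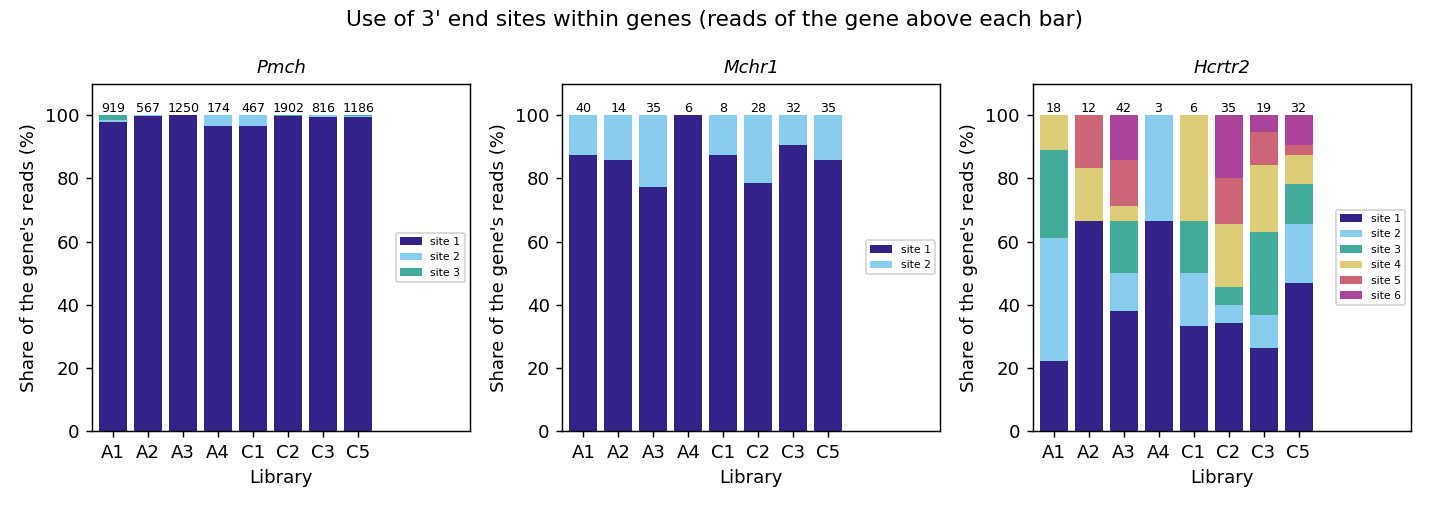
Share of the reads of Pmch, Mchr1 and Hcrtr2 (vertical axes, percent) at each 3′ end site in air controls (A1 to A4) and cannabis libraries (C1, C2, C3 and C5), with the reads of the gene above each bar. The main site takes at least 96.6% of Pmch reads in each library, whereas for Hcrtr2 it takes from 22.2% to 66.7%.

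Genes of the wider system were read as 3 lists. Of 8 genes known from orexin or MCH neurons, 7 were in the tables (all but Qrfp), and none passed an adjusted P under 0.1 or an unadjusted P under 0.05 in limma. Their log2 fold changes, 5 above and 2 below 0, had a median of 0.06 beside 0.05 over all genes. Pdyn, the precursor of dynorphin that orexin neurons release with orexin, had 126, 134, 111 and 83.4 normalized counts in controls 1, 2, 3 and 4 and 114, 182, 163 and 163 in cannabis 1, 2, 3 and 5. Cannabis 1 was the only cannabis library within the range of the controls. The log2 fold change of Pdyn was 0.45 (SE 0.23, adjusted P = 0.999 in limma), the lowest P of the list. Cartpt, the precursor of the CART peptides found in many MCH neurons and elsewhere in the hypothalamus, had 1096 ± 161 and 1441 ± 368 normalized counts in controls and cannabis-exposed rats (SD, n = 4 each), with a log2 fold change of 0.36 (adjusted P = 0.999 in limma).

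All 12 genes of signalling below the receptors were in the tables, and none passed either threshold in limma. Of these, 7 log2 fold changes were above and 5 below 0, from -0.27 to 0.37 with a median of 0.21. Orexin receptors act largely through Gq and phospholipase C, and in this branch Prkca, a protein kinase C, had the lowest P with 142 ± 42.9 and 180 ± 38.9 normalized counts in controls and cannabis-exposed rats (SD, n = 4 each, adjusted P = 0.999 in limma). Plcb3, a phospholipase C, followed with 32.4 ± 5.19 and 41.3 ± 5.32 (SD, n = 4 each, adjusted P = 0.999 in limma). Plcb1, another phospholipase C, was the only gene of the 3 lists whose groups did not overlap, with 287 to 310 normalized counts in controls and 317 to 348 after cannabis, beside 1.98% of all genes, and its log2 fold change was 0.18 (SE 0.17, adjusted P = 0.999 in limma). It was named after its values were seen. Gnai2 and Gnao1, the alpha subunits of inhibitory G proteins through which the MCH receptor can act, were the most abundant, with means of 1885 and 780 normalized counts and log2 fold changes of 0.23 and -0.27.

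The 6 pentraxin partners of Nptx2 were also in the tables and none passed either threshold in limma, with log2 fold changes from -0.10 to 0.18 and a median of 0.08. Gria2 and Gria4, subunits of AMPA-type glutamate receptors, were the most abundant at 496 and 425 normalized counts and had log2 fold changes of 0.13 and 0.04. Nptxr, the membrane-bound pentraxin, had 127 ± 20.2 normalized counts in controls and 154 ± 67.1 in the cannabis group (SD, n = 4 each), and a log2 fold change of 0.18 (adjusted P = 0.999 in limma).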

How the data were processed

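WTTS-Seq reads were filtered by the authors, trimmed of leading Ts and mapped to the rat build Rnor_6.0 (TMAP). Their ends were grouped into sites, which hold at least 16 reads over all libraries, and Cuffcompare gave gene symbols. What the authors deposited is a signal, the normalized count of each site, for which a library's reads were scaled with size factors of DESeq2. The 8 files were joined by row order. Whole reads were recovered from the value of 1 read, and 100.0% of values were whole within 0.01 reads. Gene totals are sums over sites with the same symbol. Because the values are not counts, gene totals and sites were tested with limma 3.58.1 (R 4.3.3, mean-variance trend, two-sided) on log2(normalized count + 1), without covariates, and P was adjusted by Benjamini-Hochberg over all 18003 genes or 98356 sites. The added 1 tends to shrink log2 fold changes of low genes. For Hcrtr2 and Mchr1, however, edgeR and DESeq2 gave smaller values than limma, and for Hcrtr1 they gave 0.13 and 0.14 beside 0.13 in limma. Single values had exact two-sided permutation tests. edgeR 4.0.16 (quasi-likelihood) and DESeq2 1.42.0 on recovered reads, other pseudocounts, filters, scalings and libraries were alternatives. The rats are separate animals by the study's methods. Members and lists were chosen with earlier results of these data known. The text names the 6 members, and from each list the 2 genes with the lowest P and the 2 with the highest mean.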

Additional observations from a re-analysis of the deposited data

Results flagged for a closer look

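Single libraries stood apart from the other 3 of their group in 3 of 42 sets of 4 values examined for the 6 genes, by Dixon's gap test at the 95% level. That level assumes normal values, and many of the sets share reads. A single nonzero value beside 0 in the rest of its group is always flagged, so no chance rate is given. The third site of Pmch had 10.97 normalized counts in air control 1, from 15 reads, and 0 in the other controls. The sixth site of Hcrtr2 had 4.03 normalized counts in air control 3, from 6 reads, and 0 in the other controls. In cannabis 1 the main Pmch site took 96.57% of the Pmch reads (95% Wilson interval 94.5 to 97.9, which covers counting error only), below the 99.4% to 99.8% of the other cannabis libraries and beside 96.6% in air control 4. Cannabis 1 and air control 4 were the libraries with the fewest reads in their groups, and the part of depth in this share was not tested.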

How the results depend on the processing

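No member gene or site reached an adjusted P under 0.1 in any alternative run. Log2 fold changes with 1 library left out ranged from -0.052 to 0.54 for Hcrt, 0.24 to 0.69 for Pmch, -0.28 to 0.60 for Hcrtr1, -0.047 to 0.67 for Hcrtr2, -0.17 to 0.36 for Mchr1 and 0.16 to 0.61 for Nptx2. The Pmch total had its lowest unadjusted P, 0.0345 in limma, without cannabis 1 (adjusted P 0.914). The main Pmch site ranged from 0.23 to 0.71 and had an unadjusted P of 0.025 without cannabis 1 (adjusted P 0.970) and 0.042 without air control 3 in limma. Whether the 3 shared replicate numbers pair rats is not known from the labels. Deviations of same-numbered libraries correlated from -0.235 to 0.089, and those of differently numbered libraries from -0.388 to 0.489. No control correlated best with its own number, but 3 pairs are too few to decide the question. Under the block on replicate number, in limma on 6 libraries that leave out air control 4 and cannabis 5, the log2 fold change turned to -0.10 for Hcrt, -0.22 for Hcrtr2 and -0.31 for Mchr1, and was 0.21 for Pmch, 0.88 for Hcrtr1 and 0.05 for Nptx2. Other reversals, in settings chosen after seeing the data, were Mchr1 at -0.12 with log2 reads as a covariate and Hcrtr1 at -0.0035 without the shallowest library of each group. Pseudocounts of 0.5 and 5, the mean filter at 10 (which leaves out Hcrtr1), equal totals, edgeR and DESeq2 kept all 6 signs, but edgeR and DESeq2 gave 0.12 and 0.12 for Hcrt, 0.15 and 0.16 for Hcrtr2 and 0.0048 and 0.0060 for Mchr1, and equal totals gave 0.0057 for Mchr1. With log2 reads as a covariate Hcrt was at 0.10 and Hcrtr2 at 0.03. The cause of the reversals was not tested.

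Genes called at an adjusted P under 0.1 numbered 1 in limma, 2 with the block, equal totals or edgeR, 7 with DESeq2, 0 without both shallowest libraries and 0 to 2 with 1 library left out. Sites called numbered 1 in limma, 4 with the block or DESeq2, 2 with the covariate, 0 with the mean filter or without both shallowest libraries, and 0 to 5 with 1 library left out. Member sites called stayed at 0 to 0. At an unadjusted P under 0.05, limma gave 433 genes (236 higher, 197 lower), against 423 (182 and 241) with equal totals, 237 with the block, 250 with the mean filter, 650 without air control 3 and 753 without cannabis 1. For sites it gave 2981, against 1823 with the block, 459 with the mean filter and 1829 with DESeq2. With 1 library left out, the difference in log2 Pmch to Hcrt ratio ranged from 0.12 to 0.32, r of Hcrt with Pmch from 0.710 (air control 4 left out) to 0.928, and the difference in main-site share from -0.31 to 1.08 points for Pmch, -5.47 to 2.15 for Mchr1 and -21.9 to -7.13 for Hcrtr2.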
